A study of Mus musculus with 6 samples.

Results

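The genes described here are 10 genes of the B lymphocyte lineage, read in RNA from an erythroid bone marrow fraction: the pre-B genes Vpreb1, Vpreb3 and Igll1, the B cell receptor signalling chains Cd79a and Cd79b, and 5 further B lineage genes, Ly6d, Faim3 (now Fcmr), Fcrla, Pou2af1 and 2010001M09Rik (now Mzb1). They were taken by symbol from the annotated array table, in which 8 of the 10 carried a probe under the listed symbol, 13 probes in all out of 45281. All 13 had a detection p-value under 0.05 on at least 3 of the 6 arrays and were tested, among 15743 tested probes that stood for 11567 genes. Cd79a and Igll1 were not analysed here under those symbols. A probe listed as Igl-5, a name that the RefSeq gene table gives as a synonym of Igll1 alone, is described beside the pre-B genes and was left out of every count of members.

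Bone marrow cells positive for Ter119, a surface antigen of maturing red cells, came from C57BL/6 mice 4 months old, 3 wild type and 3 with a conditional knockout of mDia2, and 1 Illumina bead array was hybridised for each mouse. mDia2 is a formin, a protein that builds straight actin filaments; its gene is Diaph3. The Cre driver of the knockout, the cells in which the gene was deleted and whether the control mice carried floxed alleles are not given in the sources used here. Per the design text, the 3 mice within a genotype are biological replicates.

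A developing B cell first pairs its immunoglobulin heavy chain with a surrogate light chain made of the VPREB1 and lambda5 proteins, the latter encoded by Igll1, and this pre-B receptor signals through the CD79A and CD79B chains. In B cells that carry a real light chain the surrogate chains are off, while CD79A and CD79B stay on as the signalling part of the B cell receptor. Mouse bone marrow holds both stages, with pre-B cells made there and mature B cells passing through.

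The promoters of the pre-B genes and of Fcmr are shown because the results turn on these genes: the pre-B genes and Fcmr differed between the wild type mice in opposite directions. Each window runs from 250 bases before to 50 bases after the RefSeq gene start in GRCm38.p6, and capitals mark matches, on either strand, to ATGCAAAT (the octamer bound by POU factors with the POU2AF1 coactivator), CCCNNGGG (the inner part of the EBF1 site), CAGGTG (an E-box bound by E2A) or GAGGAA (a PU.1 core). The Vpreb1 window is chr16:16869206-16869505 on the minus strand, the Vpreb3 window chr10:75948050-75948349 on the plus strand, the Igll1 window chr16:16863936-16864235 on the minus strand and the Fcmr window chr1:130865527-130865826 on the plus strand.
Vpreb1: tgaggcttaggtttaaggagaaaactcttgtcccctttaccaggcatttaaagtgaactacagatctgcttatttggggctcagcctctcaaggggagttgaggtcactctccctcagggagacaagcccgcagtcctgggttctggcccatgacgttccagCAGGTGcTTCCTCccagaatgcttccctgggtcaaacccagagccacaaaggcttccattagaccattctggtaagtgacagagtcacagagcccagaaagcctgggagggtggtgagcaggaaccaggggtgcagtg
Vpreb3: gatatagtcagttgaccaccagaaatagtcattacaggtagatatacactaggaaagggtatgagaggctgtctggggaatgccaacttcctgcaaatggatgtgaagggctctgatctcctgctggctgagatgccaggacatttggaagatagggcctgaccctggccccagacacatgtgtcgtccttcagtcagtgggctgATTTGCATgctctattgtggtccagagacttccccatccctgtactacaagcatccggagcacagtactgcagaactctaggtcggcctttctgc
Igll1: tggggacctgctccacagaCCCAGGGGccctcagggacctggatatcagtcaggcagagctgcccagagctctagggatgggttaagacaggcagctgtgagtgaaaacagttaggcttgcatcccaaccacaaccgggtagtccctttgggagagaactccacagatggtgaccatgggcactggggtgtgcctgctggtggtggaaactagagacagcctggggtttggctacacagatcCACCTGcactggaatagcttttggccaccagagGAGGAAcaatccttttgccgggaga
Fcmr: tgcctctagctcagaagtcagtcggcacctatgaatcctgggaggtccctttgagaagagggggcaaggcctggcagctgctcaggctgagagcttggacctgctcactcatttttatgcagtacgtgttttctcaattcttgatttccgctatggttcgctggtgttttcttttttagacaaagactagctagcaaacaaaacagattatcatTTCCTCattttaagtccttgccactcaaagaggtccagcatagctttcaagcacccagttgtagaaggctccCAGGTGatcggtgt

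The octamer was found in the Vpreb3 window, from -45 to -38 relative to the gene start on the minus strand, in the promoter of a gene whose product binds immunoglobulin chains inside B cell precursors. Among all 32851 promoter windows of the same length, 1.74% held it. The Igll1 window held the EBF1 letters from -231 to -224, which 13.7% of windows held. The E-box letters were in the Vpreb1, Igll1 and Fcmr windows and in 20.2% of all windows, and the PU.1 letters were in the same 3 windows and in 28.3% of all. No motif in the search overlapped another in these windows. RefSeq windows were also found for Cd79a, Fcrla and Pou2af1, and were not found for Cd79b, Ly6d and Mzb1. A match is a description of letters, not of a bound site.

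The RNA was mainly erythroid by its markers. Of 9 erythroid markers 8 were tested, and their summed signal lay between 148956 and 163448 in wild type and between 165091 and 167764 in knockout mice. The probe listed under Epb4.2 was undetected on every array. The arrays detected from 14815 to 16951 probes, their tested probes correlated at a Pearson r of 0.971 to 0.994 across probes, and precision is limited by there being only 6 arrays. The median log2 change over the tested genes was -0.11, and changes below are to be read beside it. That median was -0.04 with no filter on dim probes, and the median of the erythroid markers was 0.08. The target, listed as Diap3, had a log2 change of -1.12 (SE 0.18, limma adjusted p = 0.0917), and its second, dimmer probe had -0.20 (limma adjusted p = 0.225), with no overlap of the groups on either.

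All 8 measured B lineage genes had log2 changes below 0, knockout minus wild type, from -0.97 for Faim3 to -0.35 for Vpreb1, with a median of -0.62. In limma over all probes, 2 of the 8 passed an adjusted p of 0.05, Cd79b and Ly6d, beside 0.104% of all tested genes called lower. Every knockout array lay below every wild type array for 6 of the 8, beside 23.2% of all genes, and the unadjusted p was under 0.05 for 8 of the 8, beside 18.6%. Log2 changes below 0 were common, at 81.2% of all genes. The genes had been proposed with earlier results of these data known, so these counts describe them and are no test. The count of 2 became 4 without wild type replicate 2, and 1 without any single one of wild type replicates 1 and 3 and knockout replicates 1 and 3. In bulk RNA, fewer B cells and less RNA per B cell cannot be told apart.

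**Figure D1:**
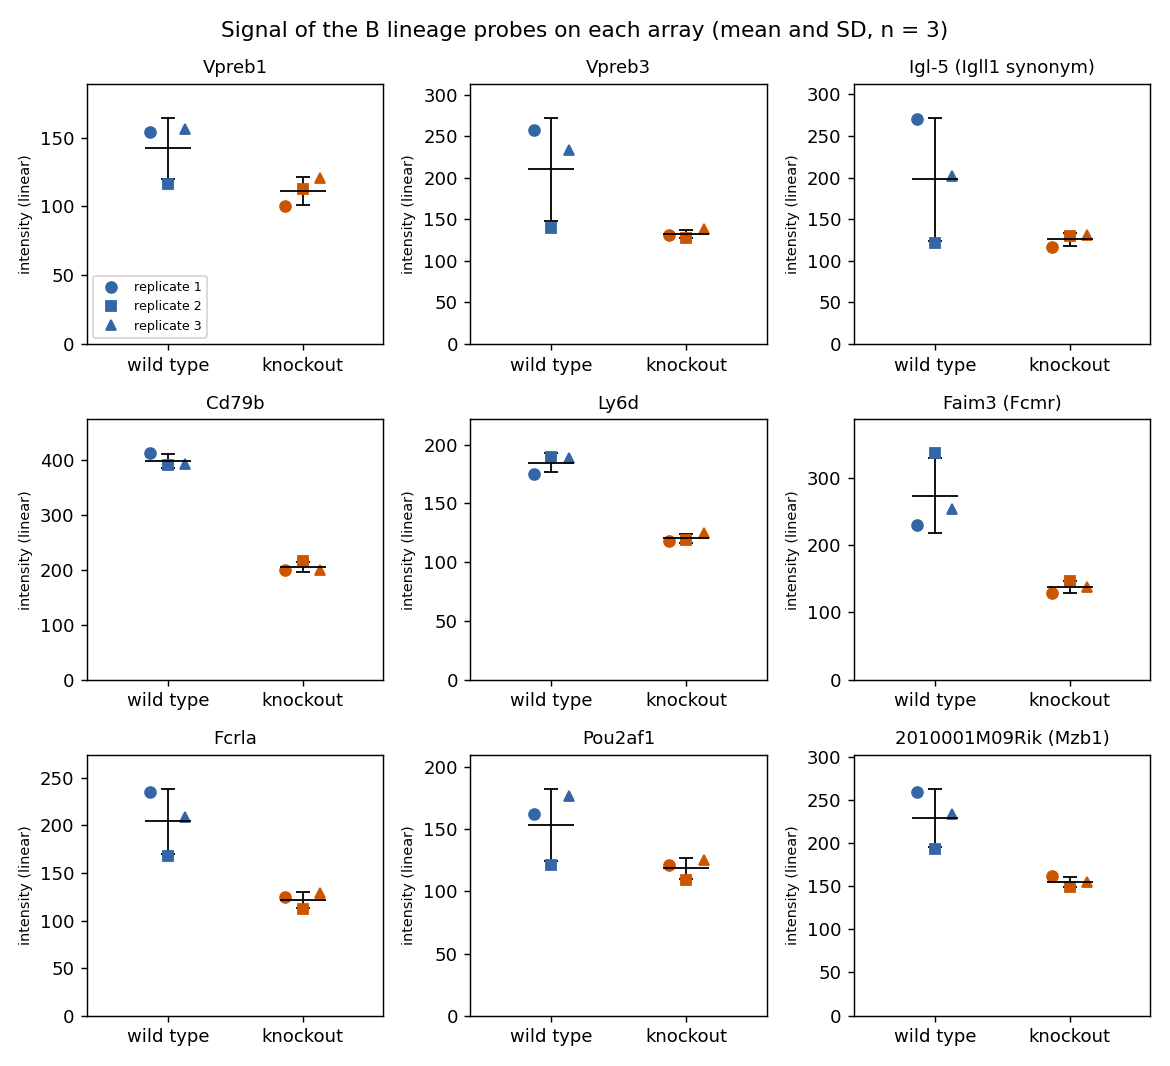
Signal in linear intensity units (y axis, from 0) of the probe of each B lineage gene with the highest mean, on each array of the 3 wild type (blue) and 3 knockout (orange) mice; the black bar and whiskers are mean and SD, n = 3, and marker shape is the replicate number. The groups are apart for Cd79b, Ly6d, Faim3, Fcrla and 2010001M09Rik, while wild type replicate 2 (square) lies at or close to the knockout values for Vpreb1, Vpreb3, Igl-5 and Pou2af1.

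Cd79b encodes the Ig-beta chain that, with CD79A, carries the signal of both the pre-B and the mature receptor. Its brighter probe read 412, 390.0 and 392 in wild type replicates 1, 2 and 3, and 199, 217 and 199.6 in knockout replicates 1, 2 and 3. The wild type values lay within 1.06-fold of each other, and the lowest was 173 units above the highest knockout value. The knockout mean of 205 ± 9.95 (SD, n = 3) was 51.6% of the wild type mean of 398 ± 12.1 (SD, n = 3). Cd79b fell by 0.96 on the log2 scale (SE 0.07, 95% interval -1.13 to -0.78, limma adjusted p = 0.00383). It passed in 20 of the 21 alternatives, with log2 changes from -1.29 to -0.77. Among the alternatives, a second deposited set of identical intensities and an adjusted p under 0.1 could not lose a call. With the replicate number as a block the limma adjusted p was 0.103.

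The second Cd79b probe was dimmer, at 243, 219 and 231 in wild type and 126, 149 and 144 in knockout mice. Its groups did not overlap either, and its log2 change of -0.73 (SE 0.09, limma adjusted p = 0.0512) missed the threshold. The receptor chain read lower on both probes, by unequal amounts. With the mean of both probes the change was -0.84.

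Ly6d encodes a surface protein that marks lymphoid progenitors committed to the B lineage. Its brighter probe read 175, 189.3 and 189.1 in wild type and 118, 119 and 125 in knockout mice. The groups were 50.6 units apart at their closest, and the wild type mean was 185 ± 7.95 (SD, n = 3) against 120.5 ± 3.84 (SD, n = 3). Ly6d fell by 0.62 (SE 0.07, 95% interval -0.79 to -0.45, limma adjusted p = 0.0426). Over the 21 alternatives the log2 change ran from -1.21 to -0.44 and the limma adjusted p from 0.00895 to 0.292. The call held in 8 of them, including the settings that could not lose it. Of the 6 fits that left out 1 array, it held in the fit without knockout replicate 2 (limma adjusted p = 0.0319) and was lost in the others (0.063 to 0.292). The second Ly6d probe read 130, 130 and 161 in wild type and 95.1, 101 and 109 in knockout mice, was detected in 2 of 3 knockout mice, and had a log2 change of -0.46 (limma adjusted p = 0.172).

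Faim3 encodes FCMR, the receptor for the constant part of IgM, found mostly on mature B cells. It read 230.0, 336 and 254 in wild type and 128, 147 and 137 in knockout mice. The groups did not overlap, and wild type replicate 2 was the highest of the 6. The log2 change was -0.97, as large as that of Cd79b, but the wild type mice differed by up to 1.46-fold and the standard error was 0.14 (95% interval -1.30 to -0.65, limma adjusted p = 0.0904). It passed without wild type replicate 2 (limma adjusted p = 0.0489) and without knockout replicate 2 (0.0367).

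Fcrla encodes an intracellular Fc receptor-like protein of B cells and had 4 probes. The brightest read 235, 168 and 209 in wild type and 125, 113 and 129 in knockout mice, a log2 change of -0.73 (SE 0.13, limma adjusted p = 0.121), and passed without wild type replicate 2 (limma adjusted p = 0.0453). From the brightest to the dimmest probe the log2 changes were -0.73, -0.69, -0.43 and -0.28, and the groups did not overlap on any of the 4. The dimmest probe averaged 113 ± 5.58 (SD, n = 3) in wild type mice and was detected in 1 of 3 knockout mice, at 93.0 ± 4.56 (SD, n = 3), close to the 86.7 to 89.5 at which undetected probes had their medians.

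2010001M09Rik is Mzb1, which encodes an endoplasmic reticulum cochaperone of immunoglobulin assembly in marginal zone B cells and plasma cells. It read 259, 193 and 234 in wild type and 161, 149 and 155 in knockout mice, with no overlap. The log2 change was -0.55 (SE 0.11, 95% interval -0.82 to -0.29, limma adjusted p = 0.156).

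Pou2af1 encodes OBF1, the B cell coactivator of octamer-binding factors. It read 163, 121.33 and 177 in wild type and 121.32, 109 and 126 in knockout mice. Wild type replicate 2 lay below knockout replicate 3 and level with knockout replicate 1, so the groups overlapped. The log2 change was -0.36 (SE 0.14, limma adjusted p = 0.244).

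On the pre-B probes wild type replicate 2 lay at or near the knockout level, unlike on Cd79b. That mouse was at or below the highest knockout array for 2 of the 8 measured genes, Vpreb1 and Pou2af1. The share over all tested genes was 60.4%, which also counts genes with no fall in the knockout group. It does not measure how common the layout of the pre-B probes was. Vpreb1, a surrogate light chain gene, read 154, 116 and 156 in wild type and 100.3, 112 and 121 in knockout mice. Knockout replicate 3 lay above wild type replicate 2, and the groups overlapped. The log2 change was -0.35 (SE 0.13, 95% interval -0.65 to -0.04, limma adjusted p = 0.229).

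Vpreb3 read 258, 140 and 233 in wild type and 131, 128 and 138 in knockout mice. The lowest wild type value was 1.78 units above the highest knockout value, so the groups did not overlap but almost met, and they overlapped with centring, quantile normalization, nec and neqc. The wild type mice spanned 1.84-fold and the knockout mice 1.08-fold. The log2 change was -0.62 (SE 0.21, 95% interval -1.11 to -0.14, limma adjusted p = 0.202).

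Igl-5, whose name is a synonym of the lambda5 gene Igll1, read 270.02, 122 and 202 in wild type and 116, 130 and 131 in knockout mice. Wild type replicate 2 lay below 2 of the 3 knockout mice on this probe. The wild type mice spanned 2.22-fold, the widest wild type range among this probe and the 13 of the measured genes, and the log2 change was -0.58 (SE 0.25, 95% interval -1.17 to 0.01, limma adjusted p = 0.271). That change was -0.32 without wild type replicate 1 and -0.89 without wild type replicate 2. A probe of Vpreb2, the near-identical copy of Vpreb1, was undetected on every array. Probe sequences were not used here, so whether the Vpreb1 probe also reads Vpreb2 RNA was not tested.

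**Figure D2:**
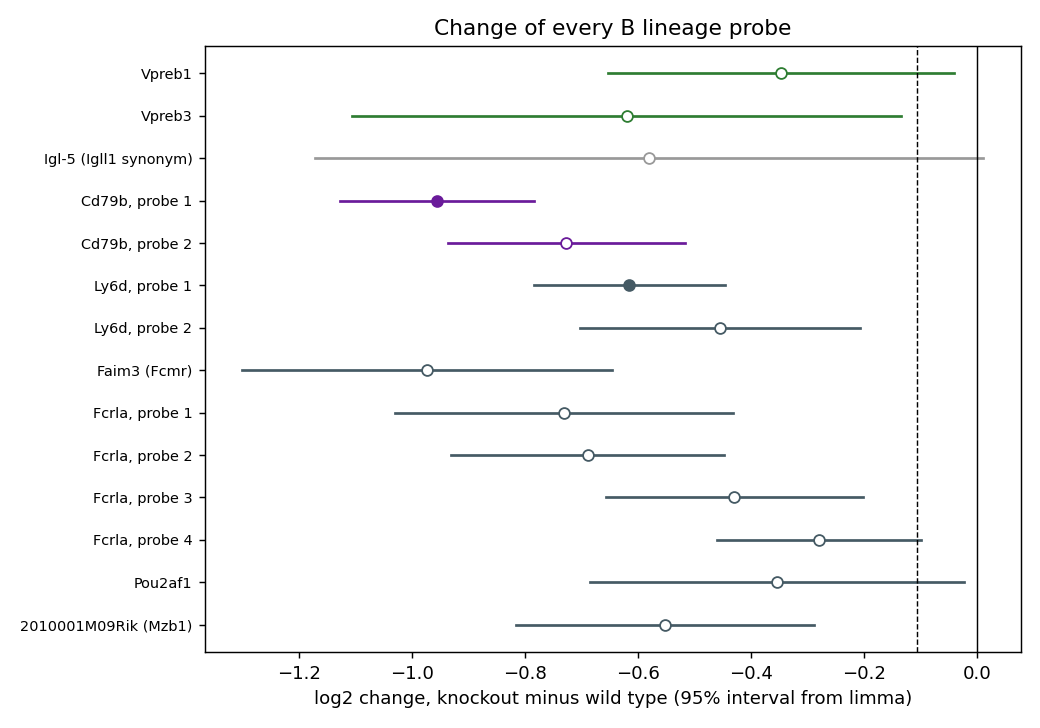
Log2 change of signal, knockout minus wild type (x axis), with its 95% interval from limma for each of the 13 probes and for Igl-5, with green for pre-B genes, purple for Cd79b, slate for the further B lineage genes and grey for Igl-5; filled points passed an adjusted p of 0.05, and the dashed line is the median of all tested genes, -0.11. All points lie below 0, and the intervals of the pre-B probes are wider than those of Cd79b.

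Set out by array, the 3 wild type mice were alike in Cd79b and unlike in the pre-B genes. Relative to each gene's wild type mean, wild type replicate 2 stood at -0.28 for Vpreb1, -0.54 for Vpreb3 and -0.63 for Igl-5 on the log2 scale. The same mouse stood at -0.03 for Cd79b, 0.04 for Ly6d and 0.32 for Faim3. Pou2af1 at -0.32, Fcrla at -0.27 and 2010001M09Rik at -0.23 went with the pre-B genes in that mouse. It was the lowest wild type array for 6 of the 8 measured genes, against 45.6% of all tested genes. The 6 include Cd79b, where it was lowest by a small margin, at 390.0 beside 392 and 412. Its median over all tested genes was -0.05.

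Averaged over Vpreb1 and Vpreb3, the knockout replicates 1, 2 and 3 stood at -0.56, -0.50 and -0.39 relative to the wild type mean, and over the 5 further B lineage genes at -0.65, -0.69 and -0.60. For Cd79b they stood at -0.997, -0.876 and -0.995. The median log2 change was -0.48 over the 2 pre-B genes and -0.62 over the 5 further genes, beside -0.96 for Cd79b and -0.11 over all genes.

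**Figure D3:**
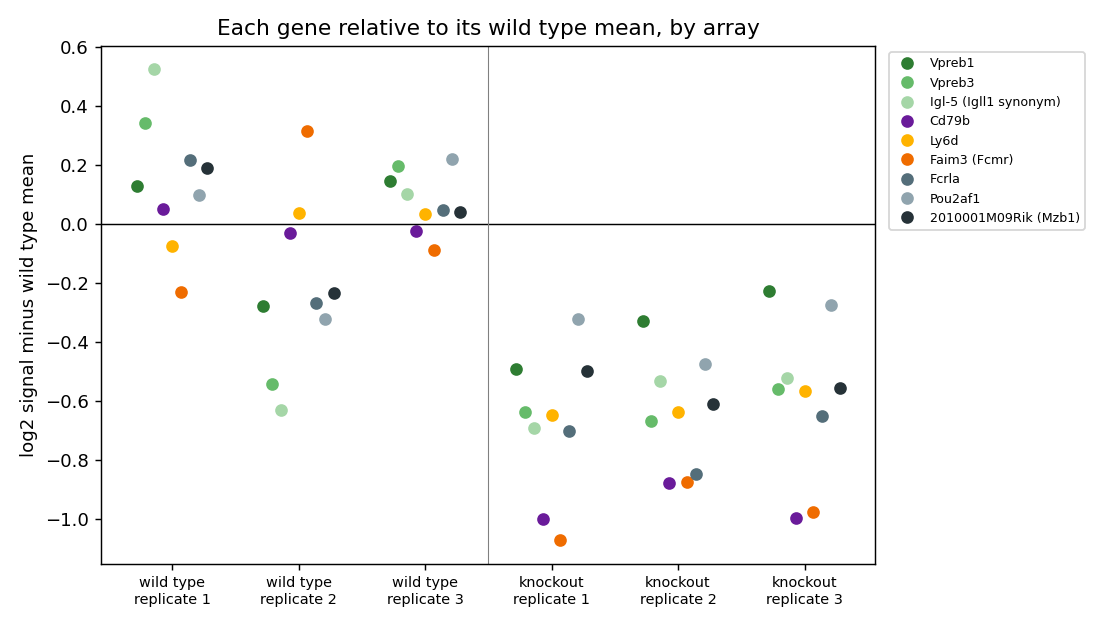
Log2 signal minus the gene's wild type mean (y axis) on each of the 6 arrays (x axis) for the 8 measured genes and Igl-5, with greens for pre-B genes, purple for Cd79b, orange for Faim3 and greys for Fcrla, Pou2af1 and 2010001M09Rik. In wild type replicate 2 the pre-B genes range from -0.63 to -0.28 while Faim3 is at 0.32; all points of the knockout arrays are below 0.

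Whether the pre-B genes changed less than the receptor chain was asked from the log2 ratio of the signals within each array. This removes any log2 shift of the whole array, but not background signal. Vpreb1 over Cd79b averaged -1.50 ± 0.22 (SD, n = 3) in the wild type group and -0.89 ± 0.14 (SD, n = 3) in the knockout group. In the signals as deposited, all 3 knockout ratios were above all 3 wild type ratios. The log2 change of Vpreb1 was smaller in size than that of the brighter Cd79b probe by 0.61. An exact permutation test of this difference (two-sided) gave p = 0.1, and no lower value is possible with 3 mice per genotype; adjusted over the 2 pairs tested it was 0.2. Of the 6 pairs intended, the other 4 involved Cd79a or Igll1.

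For Vpreb3 over Cd79b the ratios averaged -0.97 ± 0.44 (SD, n = 3) and -0.63 ± 0.11 (SD, n = 3), a difference of 0.34 with overlapping groups (exact two-sided permutation p = 0.3, also 0.3 adjusted). This difference rested on wild type replicate 2: without it, it was 0.08, and the log2 change of Vpreb3 was -0.89 (limma adjusted p = 0.0359) beside -0.97 for Cd79b. For Vpreb1 the difference without that mouse was 0.48, at a log2 change of -0.49 for Vpreb1 itself. Both differences also depended on the Cd79b probe. With the mean of each gene's probes they were 0.49 for Vpreb1 and 0.22 for Vpreb3 (exact two-sided permutation p = 0.1 and 0.6). With 3 mice per genotype this test could not pass a threshold of 0.05 for either gene, so it does not decide whether the pre-B genes and Cd79b differed. For Vpreb1 and Pou2af1, a pair picked after its values were seen, the log2 ratio averaged -0.10 ± 0.06 (SD, n = 3) in the wild type group and -0.10 ± 0.16 (SD, n = 3) in the knockout group. The log2 ratios of Vpreb3 and Igl-5 to Pou2af1 had differences of -0.27 and -0.23, knockout minus wild type, with overlapping groups.

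The signals still contained background, at 86.7 to 89.5 by the medians of undetected probes, beside wild type means from 398 for Cd79b to 142 ± 22.4 (SD, n = 3) for Vpreb1. With the normexp background correction of limma (nec), the log2 changes were -1.29 for Cd79b, -1.59 for Faim3, -1.37 for Fcrla, -1.21 for Ly6d, -1.06 for Vpreb3 and -0.75 for Vpreb1. Faim3 (limma adjusted p = 0.0223) and Fcrla (limma adjusted p = 0.0415) then passed with Cd79b and Ly6d, and the pre-B genes did not (limma adjusted p = 0.162 for Vpreb3 and 0.202 for Vpreb1). The log2 ratio of Vpreb1 to Cd79b then differed by 0.54 with nec and also with neqc, and its groups were no longer apart (exact two-sided permutation p = 0.3 in each). For Vpreb3 over Cd79b the difference was 0.23 with nec and 0.28 with neqc (exact two-sided permutation p = 0.9 in each). The direction of the 8 changes was the same in each of the 21 alternatives. Some of these, such as the replicate block and the second set of intensities, could not alter a log2 change.

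Other genes of the B lineage were read from lists. Of 60 genes in 5 further lists, 39 were tested. Log2 changes lay below 0 for 37 of them, against 81.2% of all genes. In limma over all probes 0 passed, beside 0.104% of all genes called lower. Groups did not overlap for 24 of the 39 (61.5%), all lower, against 23.2% of all genes. The count of genes lower with an unadjusted limma p under 0.05 was also 24 (61.5%, against 18.6% of all genes). The median log2 change of the 39 was -0.29, beside -0.11 over all genes. With each array centred on its tested probes, 26 of the 39 lay below 0, against 32.9% of all genes, groups did not overlap and were lower for 11 (28.2%), against 6.44%, and the median was -0.12, beside 0.07 over all genes. The median of the early B progenitor list turned to 0.05 with that centring.

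The genes of the early B progenitor list were mostly out of range: Rag1, Rag2 and Dntt, which cut and extend immunoglobulin gene segments, and Bst1, Flt3 and Lef1 were undetected on every array. Of that list Sox4, a transcription factor of lymphoid progenitors, averaged 104 ± 3.50 (SD, n = 3) and 92.8 ± 2.68 (SD, n = 3), a log2 change of -0.17 (limma adjusted p = 0.261). Il7r, the receptor for the pro-B growth factor interleukin 7, had -0.09 (limma adjusted p = 0.548). Both lay close to background.

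Of 9 tested B lineage transcription factors, 5 had groups that did not overlap, all lower, against 23.2% of all genes. With centring this was 1 of 9 (11.1%, against 6.44%), with quantile normalization 2 of 9 (22.2%, against 9.29%), and the median went from -0.23 to -0.05 with centring. The 5 included Spib, an ETS factor, at 120.3 ± 2.78 (SD, n = 3) and 102 ± 4.02 (SD, n = 3), and Pou2f2, an octamer-binding factor that partners POU2AF1, at a log2 change of -0.32. Bach2, a repressor of plasma cell fate, had -0.29 and Irf4, a factor of light chain recombination and plasma cells, had -0.23. The limma adjusted p of these 4 ranged from 0.186 to 0.244. Pax5, the factor that fixes B cell identity, was undetected on every array.

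Of 17 tested genes of B cell receptor signalling, 16 lay below 0, against 81.2% of all genes, and groups did not overlap for 11, against 23.2%, with a median log2 change of -0.36. With centring 11 lay below 0, against 32.9% of all genes, 5 were apart, against 6.44%, and the median was -0.19. The phosphatase Ptpn6 averaged 923 ± 252 (SD, n = 3) in the wild type group and 424 ± 93.9 (SD, n = 3) in the knockout group, a log2 change of -1.11 (limma adjusted p = 0.155). The exchange factor Vav1 had -0.98 and the lipid phosphatase Inpp5d -0.35, and all 3 of these are used by myeloid cells too. Cd22, an inhibitory coreceptor of B cells, averaged 119 ± 5.24 (SD, n = 3) and 93.2 ± 4.43 (SD, n = 3), a log2 change of -0.35 (limma adjusted p = 0.164). The kinase genes Syk and Lyn were undetected on every array.

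Mature B surface genes had a median of -0.31, with 9 of 9 tested below 0, against 81.2% of all genes, and groups apart for 7, against 23.2%. With centring these were 8 and 5, against 32.9% and 6.44% of all genes, at a median of -0.14. Tnfrsf13c, the receptor for the survival factor BAFF, averaged 134 ± 13.6 (SD, n = 3) and 94.5 ± 1.71 (SD, n = 3), a log2 change of -0.50 (limma adjusted p = 0.136). Fcer2a, the low-affinity IgE receptor CD23, had -0.31, and Siglecg, an inhibitory lectin, had -0.40. Cd52, a surface antigen shared by lymphocytes and myeloid cells, had -1.61, with wild type values of 1112, 800.4 and 2263. In wild type replicate 2 Fcer2a was the highest of the wild type arrays, at 121 beside 117 and 118, as Faim3 was, whereas Siglecg was the lowest at 113.

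Of the plasma cell list, Xbp1, a regulator of the secretory apparatus, had a log2 change of -0.50 (limma adjusted p = 0.290) and Igj, the joining chain of IgM and IgA, had -0.10 (limma adjusted p = 0.544). Their groups overlapped. Prdm1, Sdc1, Derl3 and Eaf2 were undetected on every array.

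Immunoglobulin probes repeated the layout of the pre-B genes in part, and groups were apart for 1 of 5 tested (20%, against 23.2% of all genes). Igh-6, the mu heavy chain, read 1749, 933 and 2552 in wild type and 799, 895 and 941 in knockout mice, so that wild type replicate 2 lay within the knockout range (log2 change -0.88, limma adjusted p = 0.218). Igk-C, the kappa constant region, read 19596, 13238 and 15551 in wild type and 10678, 11049 and 11491 in knockout mice, a log2 change of -0.52 (limma adjusted p = 0.180). Igh-VJ558 read 17073, 10661 and 12513 in wild type and 10808.5, 8699 and 7143 in knockout mice. Igh-4 did not share the layout: it read 115, 117 and 179 in wild type, lowest in replicate 1, and 99.7, 116 and 102 in knockout mice.

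**Figure D4:**
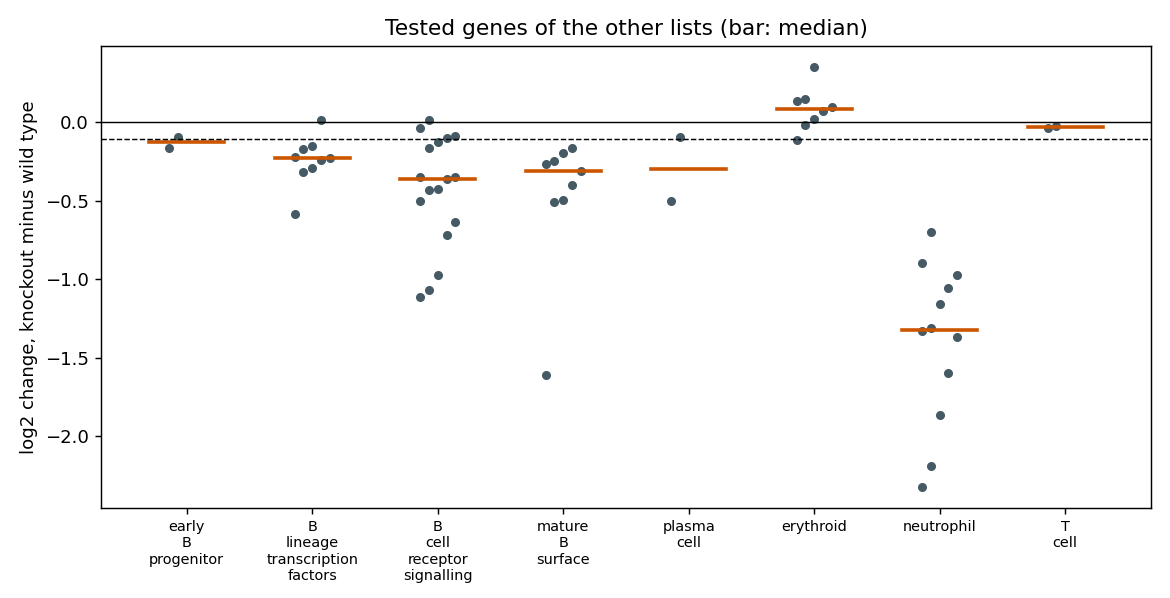
Log2 change, knockout minus wild type (y axis), of each tested gene (points) of 5 further B lineage lists and of erythroid, neutrophil and T cell markers (x axis), with the list median as an orange bar and the median of all tested genes, -0.11, as a dashed line. B lineage medians run from -0.36 to -0.13, the erythroid median is 0.08 and the neutrophil median is -1.32.

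Markers of neutrophils and of megakaryocytes and platelets were lower together with these genes. For T, NK and plasmacytoid dendritic cells only 2 markers each were tested, and their groups overlapped. All 12 of 12 neutrophil markers were lower in knockout mice with no overlap, against 23.2% of all genes, at a median of -1.32, and their summed signal ran from 37210 to 52244 in wild type and from 14901 to 26590 in knockout mice. Wild type replicate 2 had the lowest neutrophil sum of its group. The monocyte and macrophage sum ran from 3861 to 12010 in wild type, again lowest in wild type replicate 2, and from 1836 to 3421 in knockout mice, with Ccr2 undetected. Groups did not overlap for 2 of 8 tested, Lyz2 and Ly6c1 (25%, close to the 23.2% of all genes), at a median log2 change of -0.61. Megakaryocyte and platelet markers were lower with no overlap for 5 of 5 tested, against 23.2% of all genes, at sums of 1338 to 1990 and 1075 to 1139. This was 3 of 5 with centring, against 6.44%, and 4 of 5 with quantile normalization, against 9.29%. T cell markers had sums of 709 to 750 and 692 to 740, with Cd3g, Cd8a and Tcrb-J undetected on every array. NK markers summed to 1862 to 2414 and 2017 to 2224, with Klrk1 and Ncr1 undetected, and plasmacytoid dendritic cell markers to 807 to 934 and 795 to 923, with Ccr9, Klk1 and Pacsin1 undetected. Undetected probes were included in all these sums. Of the tested NK markers, Nkg7 had a log2 change of -0.59 and Prf1 0.05. The part of these cells in the B lineage result was not tested.

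By the rule of the smallest mean absolute difference between centred log2 signals over the 6 arrays, the genes closest to the mean of Vpreb1 and Vpreb3 were Myl4 (0.02), Dpp4 (0.08), LOC100047628 (0.08), Cd72 (0.08) and Igk-C (0.08). Myl4, a myosin light chain, read 228, 142 and 213 in wild type and 131, 129 and 144 in knockout mice, with wild type replicate 2 low. Cd72, a B cell coreceptor, read 181, 135 and 225 in wild type and 122, 134.8 and 135 in knockout mice. Closest to Cd79b were Tbc1d10c (0.07), Igfbp5 (0.08), 6430530L21Rik (0.11), an immunoglobulin lambda constant 2 probe (0.12) and Ets1 (0.13). Tbc1d10c, a lymphocyte gene for a calcineurin and Ras inhibitor, read 274, 262 and 255 in wild type and 141, 172 and 136 in knockout mice, without a drop in wild type replicate 2. All these genes were picked for their likeness on the same arrays, so their layout, also in wild type replicate 2, follows from the rule. With 6 arrays in 2 groups, many genes can share such a layout.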

How the data were processed

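RNA of 6 mice was extracted with Trizol and amplified to biotinylated cRNA with an Illumina TotalPrep kit, per the labels' protocols. The authors deposited for each array and probe an average signal (intensity, linear scale, called normalized by the table's name) with a detection p-value, per the file headers. The scanner software, background correction and normalization are not given in the sources used here. The other table of intensity values that the authors deposited matched it exactly in all 45281 probes. The 2 lines without a probe ID were left out, and 54 probes with symbols altered to dates or numbers were kept unnamed.

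Intensities were log2 transformed. Probes detected (p under 0.05) on at least 3 of 6 arrays were tested in limma 3.58.1 (R 4.3.3; lmFit, eBayes, two-sided tests), and p-values were adjusted by Benjamini-Hochberg across every tested probe. A gene was its symbol, represented by its tested probe of highest mean. The code was tested on simulated data. The members and lists were chosen with earlier results of these data known. Named genes were every member, up to 4 genes of smallest p per B lineage list, and the 5 genes most like each of the pre-B and receptor patterns. Tcf3 was read under its older symbol Tcfe2a, set after the table was seen. Alternatives covered normalization, background, filters, a pseudocount of 16, the variance model, weights, arrays left out, averaged probes, the replicate block and the series of animal numbers. They also covered the second set of intensities, which matched exactly, and an adjusted p under 0.1, and neither could lose a call.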

Additional observations from a re-analysis of the deposited data

How the results depend on the processing

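Under 21 alternatives the 8 member genes and Igl-5 kept log2 changes below 0. The settings of no filter, detection on all 6 arrays, an intensity trend and the replicate block left these log2 changes as they were. So did the second set of intensities and an adjusted p under 0.1, so their directions add nothing. The count of members called lower, 2 in the main setting, was 1 with quantile normalization, centring on the tested probes, neqc, detection on all 6 arrays, a pseudocount of 16, the animal number series as a term and the mean of a gene's probes. It was 4 with nec, an intensity trend, array weights and without both knockout replicate 2 and wild type replicate 3. Leaving out single arrays gave 1 to 4. Over all genes, 12 were called in the main setting, all lower. The count was 11 with quantile normalization (4 higher, 7 lower), 34 with centring (11 higher, 23 lower), 26 with neqc (7 higher, 19 lower), 46 with nec, 3 with detection on all 6 arrays, 105 with an intensity trend, 148 with array weights, 6 with the number series, 34 at an adjusted p under 0.1 and 827 with those 2 arrays left out. Leaving out single arrays gave 6 to 152: 152 without knockout replicate 2, 33 without wild type replicate 2, and 6 without wild type replicate 3, knockout replicate 1 or knockout replicate 3.

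The log2 change of Cd79b, the receptor chain measured, was -0.77 with quantile normalization, -0.78 with centring, -1.29 with nec, -1.03 with neqc and -0.84 with averaged probes. In the same order the median of the 5 further B lineage genes was -0.46, -0.44, -1.21, -0.91 and -0.54. The pre-B median, -0.48 in the main setting, was -0.33 with quantile normalization, -0.31 with centring, -0.90 with nec and -0.63 with neqc, and Vpreb1 alone was -0.17 with centring. Centring moved the median of all genes from -0.11 to 0.07, quantile normalization to 0.01 and neqc to 0.02. The cause of these shifts was not tested. The within-array differences between pre-B genes and Cd79b stayed above 0, from 0.48 to 0.72 for Vpreb1 and from 0.08 to 0.51 for Vpreb3.

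With the replicate block, 0 members and 3 genes passed, with Cd79b at a limma adjusted p of 0.103 and Ly6d at 0.276. The numbers only name the mice. Deviations of same-numbered arrays correlated at 0.218, -0.278 and -0.188 across probes. Those of wild type and knockout arrays with different numbers correlated at -0.28 to 0.341, and what such arrays share was not tested. Signals near background limit what the dim pre-B probes can show.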
